A study of Mus musculus with 3 samples.

Results

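Tnfrsf9 (4-1BB, CD137; ENSMUSG00000028965) is 1 of the 34289 features listed for this series, in which cells of Langerhans-enriched mouse ear epidermis were profiled by droplet single-cell RNA sequencing. It was chosen because its level in Langerhans cells differed between treated and untreated ears, so its levels across the libraries are given as a description, with no test. All mice were males of the strain labelled Cd1. The untreated library came from control mice that received only the hair remover Nair, the croton oil library from mice whose treatment label reads actone/croton oil/ olive oil, and the microneedle library from mice given multiple microneedle punches, with both treated ears taken 48 hours after the first treatment. Each group was 1 library from an unstated number of animals, so every interval below covers counting error within a library only, and a difference between libraries has no replicate check. The epidermis had been loosened with trypsin, dead cells removed and Langerhans cells enriched magnetically, steps that all 3 libraries share.

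4-1BB is a costimulatory receptor of the TNF receptor superfamily. It is best known from activated T cells and natural killer cells, and dendritic cells can carry it too. Its ligand, 4-1BBL, is encoded by Tnfsf9. The receptor recruits TRAF1 and TRAF2 adaptors, which engage cIAP ubiquitin ligases, activate NF-kB and raise survival proteins of the BCL2 family. Langerhans cells present antigen and live in the epidermis. On maturing they gain Ccr7 and Fscn1 and leave for the draining lymph node.

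Tnfrsf9 lies on the plus strand of chromosome 4, at chr4:150999019-151030559 in GRCm39 with the GENCODE M39 annotation. Of its 9 annotated transcripts, 5 end at the last base of the gene, and the transcripts have 7 different first bases. The 3' counts used here do not tell these starts apart. RefSeq's promoter table (GRCm38.p6) held 2 windows for the gene, and the 250 bases before each start were found unchanged in GRCm39. The window before the start at base 151012456 held matches to 2 motifs of factors that act in lymphocyte activation. They are shown because NF-kB genes are described further on: the first sequence holds an NF-kB consensus match and the second an AP-1 match (TGANTCA), with the matching bases in capitals. The first lies at chr4:151012408-151012428 and the second at chr4:151012436-151012452, both on the plus strand and both inside the first exon of another annotated Tnfrsf9 transcript.
NF-kB consensus: cagctGGGGATTTCCCaggag
AP-1: tcagtTGAGTCAcaggt
On either strand, the NF-kB consensus occurred in 2382 of 32851 RefSeq windows of 250 bases (7.25%), AP-1 in 2217 (6.75%) and both in 117 (0.356%). The 11 capitals of the first sequence hold overlapping matches of the same motif. The window before the other start, at base 151004612, held neither set of letters. A match of letters is a description, and no binding was measured.

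Called cells numbered 9876 in the untreated, 8241 in the croton oil and 6945 in the microneedle library, with 117178809 to 127666928 UMIs (unique molecular identifiers, each standing for 1 captured molecule) per library. After filtering, 9048, 7616 and 6471 cells were kept, in the order untreated, croton oil, microneedle, which holds below unless the libraries are named. Pairs of libraries shared 13 to 32 cell barcodes. Langerhans cells were taken as cells whose Cd74, H2-Aa, H2-Ab1 and H2-Eb1 made up at least 2% of UMIs and that had at least 2 Epcam UMIs, leaving out cells that also met the T cell gate (at least 3 UMIs of Cd3e, Cd3g and Cd3d). This gave 8644, 5828 and 5269 gated cells, 19741 of the 23135 retained. In the gated cells without Ccr7, all 8 listed Langerhans markers were at 20 CPM (the gene's share of all UMIs of the summed cells, in parts per 1000000) or more in every library, with Cd207, the gene of langerin, at 569.5, 313 and 462 CPM. Of 20 T cell markers measured, 1 passed 20 CPM in the croton oil library and none in the other 2. It was Icos, at 0.130, 32.4 and 13.8 CPM. Cd3e, held low by leaving out the cells of the T gate, was at 0.363, 0.318 and 0.550 CPM. The T cell list summed to 19.7, 46.1 and 25.2 CPM there, with 4, 3 and 5 markers at 0, and to 10746 CPM in the T cells of the croton oil library. The keratinocyte list summed to 245, 168 and 48.2 CPM in the same Langerhans cells. The neutrophil list summed to 2665, 2800 and 4077 CPM, of which Il1r2, also carried by untreated cells, was 2505, 2682 and 3964 CPM, while S100a8 was at 0, 35.3 and 14.3 CPM and Retnlg at 0, 11.4 and 0.804 CPM. The part of other cells' RNA in the values below was not tested beyond the comparisons given.

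In Langerhans cells without a Ccr7 UMI, Tnfrsf9 was low in untreated ears and abundant after croton oil, with microneedling between. The 8625 untreated cells held 772 Tnfrsf9 UMIs, a level of 7.19 CPM (95% exact Poisson interval 6.69 to 7.71). The 5553 croton oil cells held 35730 UMIs, 473 CPM (468 to 478), and the 5206 microneedle cells held 6345 UMIs, or 67.1 CPM (65.5 to 68.8). None of the 3 intervals overlapped, but they cover counting error only, and the gene had been chosen for this difference. The ratio of levels to untreated was 65.9 (counting interval 61.3 to 70.7) for croton oil and 9.34 (8.67 to 10.1) for microneedling, and the croton oil level was 7.05 times the microneedle level (6.87 to 7.24).

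On the log2((CPM + 5)/(CPM + 5)) scale, which understates changes of low genes, the croton oil difference was 5.29 and the microneedle difference 2.57. On this scale, among the 8374 features with a mean of at least 10 CPM over the libraries, Tnfrsf9 ranked 1st in croton oil and 21st in microneedle. The 1st place depends on the pseudocount of 5: C1qc, from 0.624 CPM in untreated to 186 CPM in croton oil, had a larger plain ratio. Features past 2-fold upward made up 4.67% in croton oil and 3.40% in microneedle, and those past 2-fold downward 4.63% and 1.47%. The croton oil counts were 391 higher and 388 lower, and with TMM scaling 532 higher and 284 lower, a scaling that moved the median of all features from -0.04 to 0.09. Without mitochondrial and ribosomal protein genes in the total they were 382 and 461, and with a pseudocount of 1 CPM 489 and 532. Next to Tnfrsf9 in the croton oil order stood C1qc (5.09) and C1qa (4.58), chains of the complement component C1q, then Gpr171 (4.56), a G protein-coupled receptor, H2-Ea (4.52), a class II chain, Timp1 (4.33), an inhibitor of matrix proteases, Gm17276 (4.29), Timd4 (4.11), a phosphatidylserine receptor, Il21r (4.11), the IL-21 receptor chain, and Pgf (4.09), a growth factor of the VEGF family. The microneedle order was led by Tgfbi (4.25), a matrix protein, Il21r (4.22), Ly6a (4.13), Timp1 (3.70), 4930523C07Rik (3.51), Htr7 (3.51), a serotonin receptor, Scin (3.22) and Rhoq (3.21), which act on actin, Myo10 (3.20) and Scube1 (3.18). In croton oil against microneedle, where 1.21% of features were at least 2-fold higher and 0.955% lower, Tnfrsf9 ranked 6th at 2.73, behind H2-Ea (4.49), Mgl2 (4.02), Mrc1 (3.26), Eno3 (3.04) and Gm56663 (2.78).

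The share of cells with Tnfrsf9 differed between libraries in the same order. At least 1 Tnfrsf9 UMI was found in 5.76% of untreated, 76.2% of croton oil and 29.8% of microneedle cells without Ccr7. Because the median cell had 11505, 12509 and 17306 UMIs, each cell was also thinned to 3000 UMIs, which left out 101, 30 and 58 shallower cells. The thinned shares were 1.83% (exact Clopper-Pearson interval 1.56 to 2.14), 52.5% (51.2 to 53.8) and 12% (11.1 to 12.9). The spread within a library was wide: in croton oil 23.8% of these cells had no Tnfrsf9 UMI, 12.7% had 1 and 8.07% had 20 or more, up to 119 in 1 cell. In microneedle the cells with 20 or more were 0.461%, and in untreated 1 cell of 8625 reached that range. After thinning, the variance of the count was 3.26 times its mean in croton oil, 2.42 times in microneedle and 1.56 times in untreated, against 1 for counts that vary by sampling alone.

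**Figure D1:**
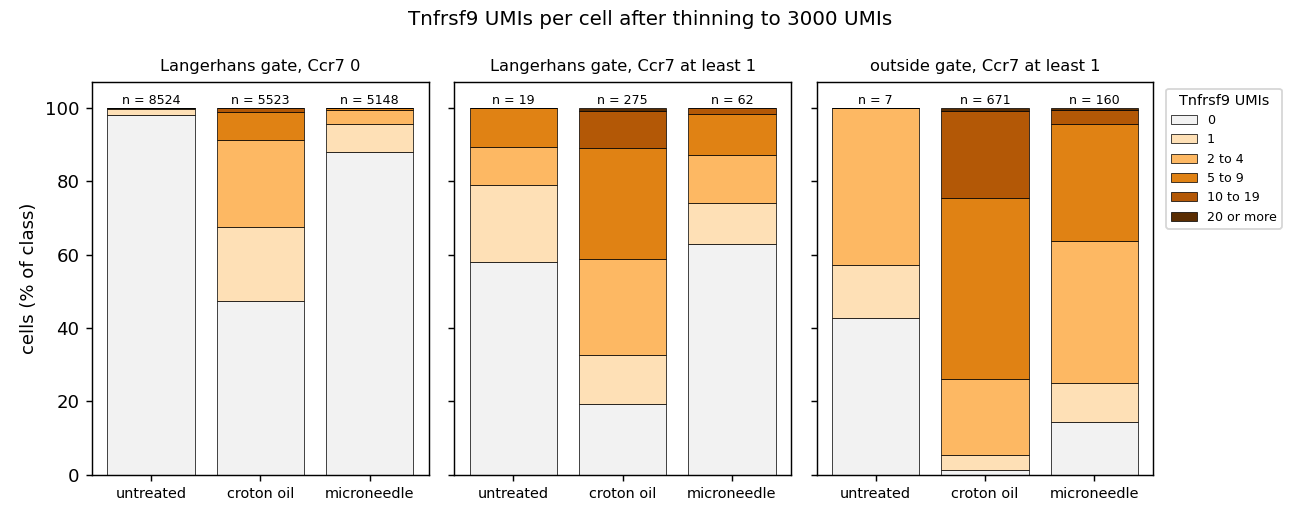
Share of cells (%) by their number of Tnfrsf9 UMIs after thinning to 3000 UMIs, for 3 classes of cells (panels) and the 3 libraries (bars, with the number of cells above each). In the Langerhans gate without Ccr7, 98.2% of untreated, 47.5% of croton oil and 88.0% of microneedle cells had no Tnfrsf9 UMI, against 1.34% of the croton oil cells with Ccr7 outside the gate.

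Tnfrsf9 was also counted in the other cell classes. Keratinocytes (at least 1% of UMIs from Krt5, Krt14, Krt1 and Krt10, class II under 2%) had 2.25 CPM (1.16 to 3.94) untreated, 72.6 CPM (67.5 to 77.9) after croton oil and 4.29 CPM (2.29 to 7.34) after microneedling, with median depths of 31465, 51566 and 34373 UMIs. After thinning, 10.6% of croton oil keratinocytes and 1.61% of microneedle keratinocytes had a Tnfrsf9 UMI. The croton oil keratinocytes had 9.89% of the level in gated Langerhans cells and cells outside all gates pooled. For 12 reference genes this share was 8.0% to 10.8%. They were Cd207, Mfge8, Ltc4s, Csf1r, C1qa, C1qb, C1qc, Il1b, Cd74, H2-Aa, H2-Ab1 and H2-Eb1. The last 4 define the gate, so their shares are partly fixed by the class definitions, and Il1b is not particular to Langerhans cells. The untreated keratinocytes, with 12 Tnfrsf9 UMIs, had 26.2%, where the same genes had 0 to 22.0%, and the microneedle keratinocytes, with 13 UMIs, 4.16%, where they had 0 to 20.7%. Neutrophils (S100a8 and S100a9 at least 1% of UMIs, a UMI of Csf3r or Cxcr2, class II under 2%) were absent from the untreated library and reached 6.21 CPM (2.02 to 14.5) over 188 croton oil cells and 5.12 CPM (2.34 to 9.72) over 370 microneedle cells, whose median depths were 3239 and 3425 UMIs. Their thinned shares, 1.85% and 1.97%, were close to the 1.83% of untreated Langerhans cells. The 122 microneedle cells in the monocyte/macrophage gate (at least 5 Lyz2 UMIs, at least 3 of Ly6c2, Ccr2, Plac8, Fcgr1 and Ms4a7, no Epcam) had 4 Tnfrsf9 UMIs, 3.27 CPM.

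Gated cells with a Ccr7 UMI had more Tnfrsf9 than those without, in each library. Only 19 untreated cells qualified, with 108 UMIs and 337 CPM (276 to 407), 46.9 times the level of untreated cells without Ccr7 (38.3 to 57.3). The 275 croton oil cells had 1348 CPM (1313 to 1383), 2.85 times the level without Ccr7 (2.77 to 2.93), and the 63 microneedle cells 352 CPM (321 to 386), 5.25 times (4.78 to 5.77). The thinned shares with Tnfrsf9 were 42.1% (20.3 to 66.5), 80.7% (75.6 to 85.2) and 37.1% (25.2 to 50.3). Between libraries, the croton oil level in Ccr7-positive gated cells was 4.0 times the untreated level (3.31 to 4.84), and the microneedle level 1.05 times (0.848 to 1.29), an interval that includes 1.

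In the treated libraries the class with the highest Tnfrsf9 level lay outside the Langerhans gate. Cells outside the Langerhans, T cell, keratinocyte, neutrophil and monocyte/macrophage gates were split by Ccr7 after the data had been seen. The 678 croton oil cells of this kind with Ccr7 had 2287 CPM (2257 to 2317) and the 166 microneedle cells 1271 CPM (1228 to 1314), against 454 CPM (336 to 600) in 7 untreated cells. The untreated value was 1.35 times that of the gated untreated cells with Ccr7, with an interval that includes 1 (0.961 to 1.89). They held 31.9% of all Tnfrsf9 UMIs of the croton oil library, 31.6% of the microneedle library's and 5.09% of the untreated library's. After thinning, Tnfrsf9 was found in 98.7% (97.5 to 99.4) of them in croton oil and in 85.6% (79.2 to 90.7) in microneedle, and the croton oil level was 1.80 times the microneedle level (1.74 to 1.87).

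Of these 678 croton oil cells, 562 had class II under the 2% limit and 284 had fewer than 2 Epcam UMIs. Their median class II share was 0.349% of UMIs, against 5.12% in gated cells without Ccr7. In the microneedle library 158 of 166 failed the class II limit, with a median of 0.125%. Fscn1, an actin-bundling protein of migrating dendritic cells, was detected in 88.5% and 86.1% of them, against 32.7% and 12.7% of the gated Ccr7-positive cells, and Cd207 in 49.3% and 49.4%. The 8 listed Langerhans markers summed to 1756 and 1449 CPM in them, against 5635 and 4967 CPM in gated cells without Ccr7. These are classes by threshold, and no cell type name is given to them. Cells outside the gate without Ccr7 had 1141 CPM in croton oil (503 cells), 95.6 CPM in microneedle (433 cells) and 6.46 CPM in untreated (232 cells). They held markers of other cells: the keratinocyte list summed to 955, 967 and 5576 CPM in these 3 libraries in turn and the monocyte/macrophage list to 365, 1959 and 259 CPM, and their part in the Tnfrsf9 level was not tested.

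**Figure D2:**
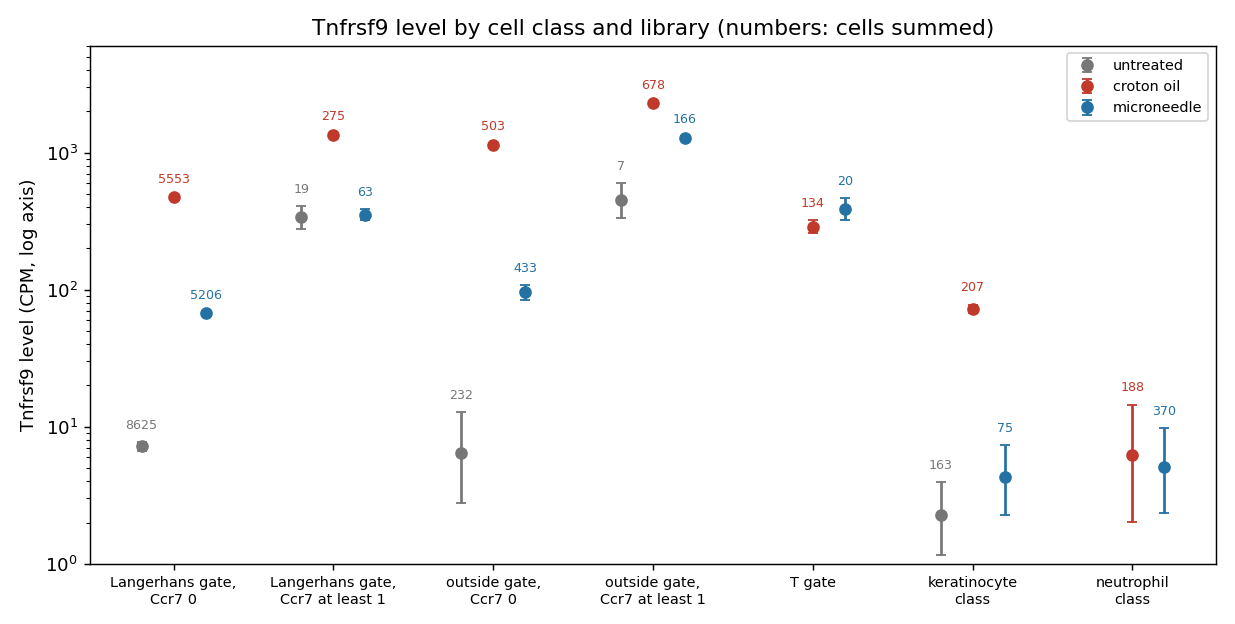
Tnfrsf9 level (CPM, log axis) in 7 classes of cells and 3 libraries. Points are levels of the summed cells, bars exact 95% Poisson intervals and numbers the cells summed; classes with fewer than 2 cells are not drawn. Croton oil is highest of the 3 libraries inside and outside the Langerhans gate, with and without Ccr7, up to 2287 CPM outside the gate with Ccr7.

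Over gated and outside cells of the treated libraries together, Tnfrsf9 detection was high from 1 Ccr7 UMI upward, with both genes counted after thinning. Cells that lost their Ccr7 UMIs in thinning count at 0, so 1 UMI here need not be the first of the unthinned cell. In thinned croton oil cells the share with Tnfrsf9 was 54.7% at 0 Ccr7 UMIs, 90.5% at 1, 98.5% at 2, 99.3% at 3 to 5 and 98.0% at 6 or more. In thinned microneedle cells it was 12.1% at 0, 85.7% (69.7 to 95.2) at 1, 78.1% (60.0 to 90.7) at 2, 87.1% (76.1 to 94.3) at 3 to 5 and 87.5% (71.0 to 96.5) at 6 or more. The mean Tnfrsf9 count of the thinned croton oil cells was 5.8 UMIs at 1 Ccr7 UMI, 7.15 at 2, 7.27 at 3 to 5 and 6.96 at 6 or more. In untreated ears 2 of 7 thinned cells with 1 Ccr7 UMI had Tnfrsf9 (28.6%, 3.67 to 71.0) and 3 of 5 with 2. Among gated cells alone, Tnfrsf9 was found in 90.2% (83.9 to 94.7) of the 133 croton oil cells with Ccr7 after thinning. For microneedle the share was 64.3% (35.1 to 87.2) of 14 cells.

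In the treated libraries, over gated and outside cells of at least 3000 UMIs together, Tnfrsf9 was lower in each class II bin from 1 to 2% of UMIs upward, with and without Ccr7. Just outside the gate's class II limit, croton oil cells without Ccr7 at 1 to 2% class II had 1207 CPM (1157 to 1258; 155 cells), and just inside, at 2 to 4%, 571 CPM (560 to 583; 1100 cells). At 6% or more the level was 451 CPM. Croton oil cells with Ccr7 had 2202 CPM under 0.5% class II, 2490 CPM at 1 to 2%, 1755 CPM at 2 to 4% and 1430 CPM at 6% or more. In microneedle cells with Ccr7 the level was 1337 CPM (1289 to 1386) under 0.5%, 501 CPM (455 to 550) at 2 to 4% and 225 CPM (185 to 271; 28 cells) at 4 to 6%. Below 1% the order did not hold: microneedle cells without Ccr7 under 0.5% class II had 45.6 CPM (35.5 to 57.7), against 264 CPM at 1 to 2%, and croton oil cells without Ccr7 under 0.5% had 724 CPM. The untreated cells without Ccr7 had 7.63 CPM at 2 to 4%, 6.47 CPM at 4 to 6% and 9.61 CPM at 6% or more, with no such order.

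**Figure D3:**
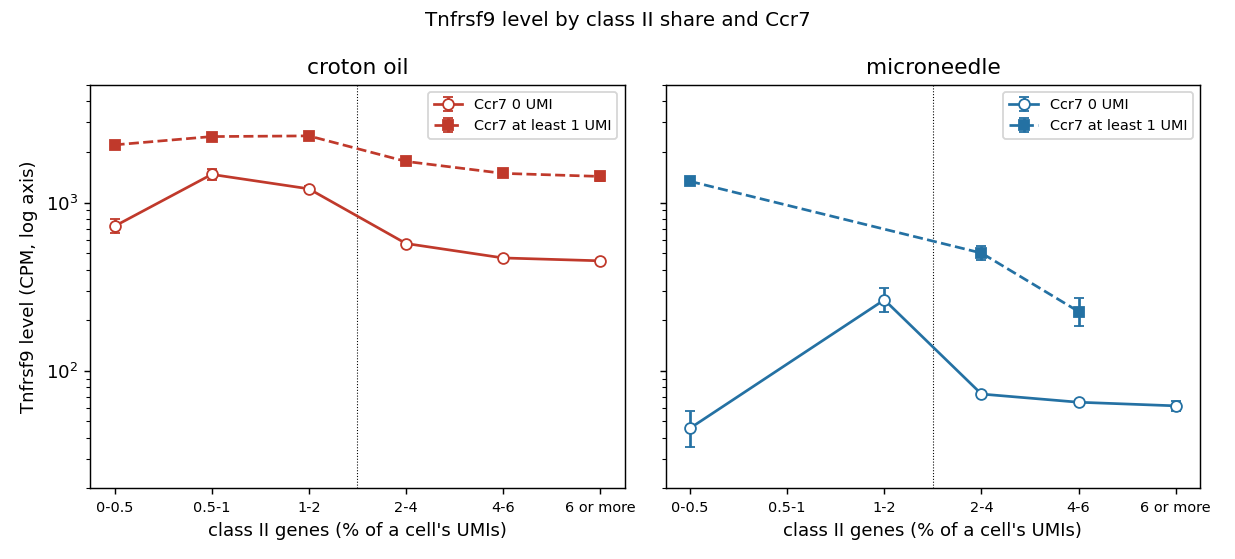
Tnfrsf9 level (CPM, log axis) against the share of a cell's UMIs from Cd74, H2-Aa, H2-Ab1 and H2-Eb1 (%), for gated and outside cells of at least 3000 UMIs with and without Ccr7 in the treated libraries. Bars are 95% Poisson intervals, bins with fewer than 20 cells are not drawn, and the dotted line is the limit of the Langerhans gate. Croton oil cells without Ccr7 had 1207 CPM just outside the limit and 571 CPM just inside.

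Tnfrsf9 was the 1 receptor of its family past 2-fold, and it had been chosen for that difference. Of 28 TNF receptor superfamily genes listed, 11 passed the level filter in Langerhans cells without Ccr7, and of the 10 others 0 were at least 2-fold higher or lower in croton oil, in microneedle or between the treatments, with medians of 0.26 and -0.00 against untreated. Over all features 4.67% (croton oil) and 3.40% (microneedle) were higher and 4.63% and 1.47% lower, with medians of -0.04 and 0.02, so a count of 0 among 10 is near that share. The nearest was Tnfrsf1b, the TNF receptor 2 gene, at 43.5, 65.0 and 85.8 CPM (0.53 and 0.90). Cd27, a costimulatory receptor related to 4-1BB, was at 24.0, 15.2 and 25.4 CPM, and Cd40, which receives T cell help, at 90.0, 68.4 and 78.1 CPM. Tnfrsf1a, the TNF receptor 1 gene, Relt, Tnfrsf13b, Tnfrsf12a, Ltbr, Tnfrsf11a and Tnfrsf23 lay between -0.37 and 0.49, and Tnfrsf23 changed sign in croton oil under TMM scaling (-0.00 and 0.13). The other 17 members were under the filter, among them Tnfrsf4 (OX40), at 0.456, 0.344 and 0.391 CPM.

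The ligand of 4-1BB was scarce in the same cells. Tnfsf9 was under the level filter, at 4.06 CPM (3.69 to 4.46) untreated, 7.94 CPM (7.31 to 8.60) after croton oil and 3.66 CPM (3.28 to 4.07) after microneedling, and 5.18 CPM in the Ccr7-positive cells outside the gate of the croton oil library. Of 18 TNF superfamily ligands, 5 passed the filter, with medians of -0.15 in croton oil and -0.33 in microneedle. Against the shares over all features (4.67% higher and 4.63% lower in croton oil, 3.40% and 1.47% in microneedle), 2 of the 5 were higher in croton oil. These were Ltb, a lymphotoxin chain, from 3.64 to 53.3 CPM (2.76), and Tnfsf12 (TWEAK), from 11.1 to 29.7 CPM (1.11). Ltb, at 5.72 CPM in microneedle, passed the filter only through croton oil, so its place in this count is set by the filter. In both treatments 2 were at least 2-fold lower: Tnf from 609 to 272 and 267 CPM (-1.15 and -1.17), and Tnfsf15 (TL1A) from 49.7 to 8.04 and 18.5 CPM (-2.07 and -1.22). Tnfsf8, the CD30 ligand, was at 11.8, 10.1 and 8.30 CPM.

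Downstream of the receptor, 26 of the 27 other 4-1BB axis genes (ligands, adaptors, NF-kB subunits and regulators, survival genes) passed the filter. Past 2-fold were 5 upward and 1 downward in croton oil, where 4.67% and 4.63% of all features were, and 3 upward and 0 downward in microneedle, where 3.40% and 1.47% were. The medians were 0.31 and 0.21. The adaptor Traf1 went from 4.52 CPM in untreated to 32.6 CPM after croton oil (1.98) and 20.8 CPM after microneedling (1.44). Traf1 passed the level filter only through the treated libraries, where it was high, so its calls in these counts are partly set by the filter. Traf2, which binds the same receptor tail, was at 11.5, 17.8 and 15.3 CPM (0.46 and 0.29). The A1 survival genes Bcl2a1b (2.77 and 1.27), Bcl2a1a (2.04 and 0.91) and Bcl2a1d (1.58 and 0.99) were higher in croton oil, with Bcl2a1b at 49.5, 367 and 127 CPM. They are near-identical copies, so how the counting shared reads between them is uncertain. Bcl2 was at 20.7, 54.4 and 43.3 CPM (1.21 and 0.91), and Bcl2l1, the BCL-XL gene, at 121, 175 and 249 CPM (0.51 and 1.01, the latter 0.97 without mitochondrial and ribosomal protein genes in the total and 0.99 under TMM).

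The NF-kB subunits were within 2-fold in these cells. Birc3, which encodes cIAP2, was lower in croton oil, 341 against 723 CPM (-1.07, or -0.94 under TMM), and at 555 CPM in microneedle. Nfkb1 (-0.25 and 0.17), Rel (-0.37 and -0.17), Relb (-0.51 and -0.04), Rela (0.28 and 0.18) and Nfkb2 (0.17 and 0.07) lay on either side of 0, and the inhibitors Nfkbia (0.62 and -0.03) and Tnfaip3 (-0.69 and -0.47) were within 2-fold as well. Traf3 was at 0.94 and 0.83, and passed 2-fold in croton oil under TMM (1.07).

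**Figure D4:**
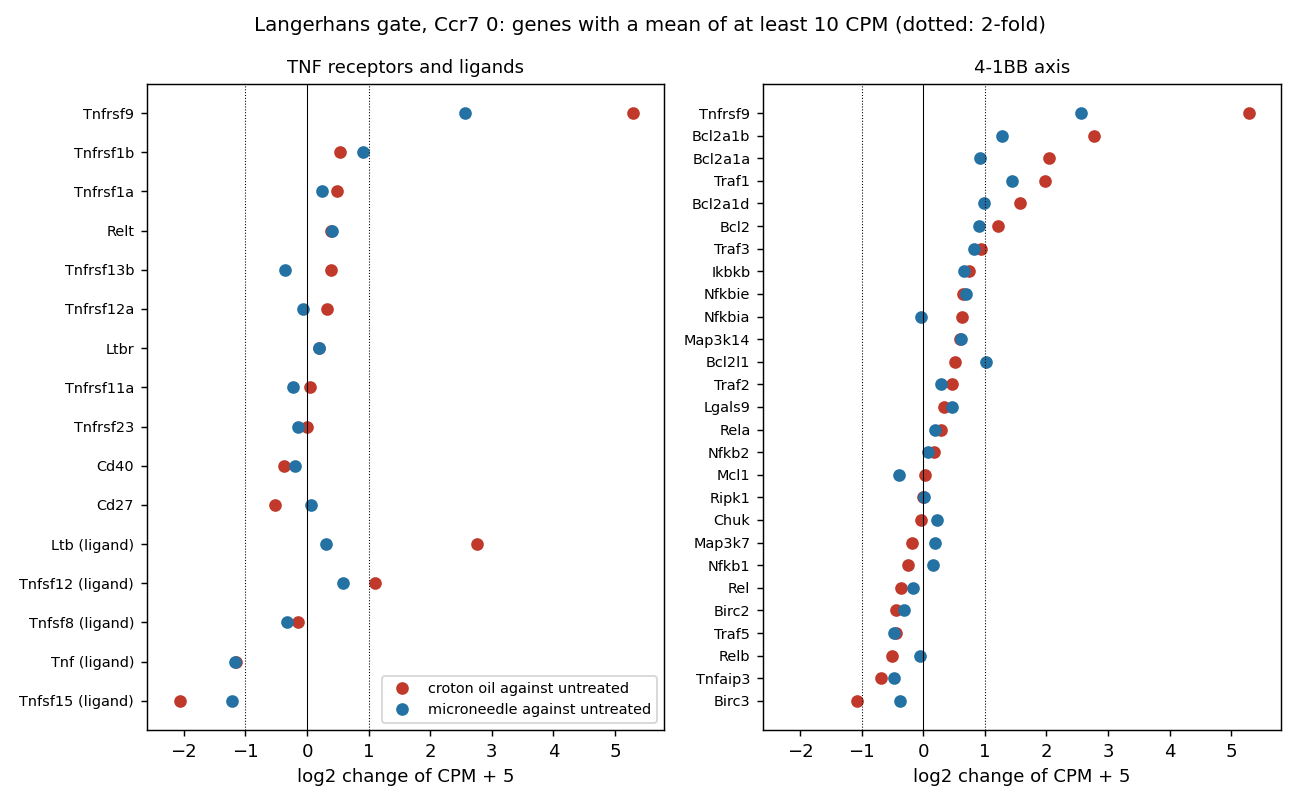
log2 change of CPM + 5 from untreated in Langerhans cells without Ccr7, for croton oil and microneedle, of the TNF receptors and ligands (left) and the 4-1BB axis genes (right) with a mean of at least 10 CPM. Dotted lines mark 2-fold; Tnfrsf9 is at 5.29 and 2.57, and the other 10 receptors lie between -0.52 and 0.90.

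For the Ccr7-positive cells outside the gate the axis genes were compared between classes of a library, not with untreated, so the counts are of another kind. Set against gated cells without Ccr7 of the same library, 8.03% of features were past 2-fold upward and 11.6% downward in croton oil, and 9.96% and 13.0% in microneedle. Of the 26 axis genes that passed the filter, 14 were past it upward and 2 downward in croton oil; for microneedle the numbers were 13 and 3. The medians were 1.04 and 1.09, against -0.14 and -0.13 for all features. Traf1 had 543 CPM there in croton oil and 526 in microneedle, and in the same order Bcl2a1b had 1602 and 1129, Nfkb1 2604 and 2658, Rel 2465 and 3437, and Traf5, a further adaptor, 173 and 155 against 14.3 and 13.8 in gated cells. Bcl2 was lower, at 8.13 and 14.3 CPM. Tnfrsf9 itself was 2.26 higher in croton oil and 4.14 in microneedle, and ranked 200th of 8178 and 50th of 8416 features.

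Other TNF receptors were measured in the same cells. Cd40 had 419 CPM in croton oil and 788 in microneedle, against 68.4 and 78.1 in gated cells without Ccr7, Tnfrsf1b 203 and 236 against 65.0 and 85.8, and Tnfrsf11a (RANK, a receptor for Tnfsf11) 232 and 185 against 39.4 and 31.9. Fas, at 48.3 and 64.7 CPM, and Tnfrsf11b, which encodes the decoy receptor osteoprotegerin, at 215 and 83.5 CPM, had been under the level filter in gated cells, at 4.35 and 5.69 CPM and at 1.36 and 0.296 CPM. Such genes enter the comparison only through the cells in which they are high, so no count over this family is given. The same holds for maturation genes, among them Ccl22, a chemokine that draws T cells, at 1241 and 1442 CPM against 6.24 and 4.52, and Cd274 (PD-L1) at 353 and 238 CPM against 10.9 and 3.77. Of 18 genes listed as injury-linked from these same libraries, 12 were past 2-fold upward from untreated in gated cells of each treatment and 5 (croton oil) and 6 (microneedle) downward. Over all features 4.67% and 3.40% were upward and 4.63% and 1.47% downward, but the list was drawn up from these differences, so its count restates the choice. In the cells outside the gate C1qa was at 122 and 7.90 CPM, against 1522 and 489 in gated cells. Of the maturation genes, 8 of 18 passed the filter in gated cells without Ccr7, 1 higher and 1 lower than untreated in each treatment. The higher one was Cd80, a ligand of CD28, at 284 and 262 CPM from 53.7 CPM (2.30 and 2.18). Cd83, on the same list, went the other way. Over thinned gated cells without Ccr7 it had 1560 CPM untreated, 686 CPM after croton oil and 841 CPM after microneedling. The medians of the 8 genes were -0.28 (croton oil) and -0.12 (microneedle).

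Among Langerhans cells without Ccr7, the genes most like Tnfrsf9 from cell to cell were ranked by Pearson's r of log counts after thinning, over features of at least 20 CPM. The correlations were weak and are given as a description: cells of a library share its depth and its free RNA. In croton oil (5523 cells, 6209 features, median r -0.00) the 10 highest were Myo10, a filopodial myosin (r 0.25), Mgl2, a C-type lectin (0.23), Cd80 (0.20), Ftl1, ferritin light chain (0.18), Errfi1, an inhibitor of EGF receptor signalling (0.18), Basp1 (0.18), Crip1 (0.17), Traf1 (0.17), Eno3, an enolase (0.16), and Btg1, an antiproliferative gene (0.16). The 5 lowest were Alox5ap, which leukotriene synthesis needs (-0.22), Cacna1e, a calcium channel subunit (-0.19), Epcam (-0.18), Pcdh7 (-0.17) and H2-DMa (-0.16). Epcam was part of the gate.

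In microneedle (5148 cells, 6331 features) the highest were Cxcl2, a neutrophil-attracting chemokine (r 0.17), Myo10 (0.16), Cd80 (0.16), Pgf (0.16), St3gal1 (0.15), Srgn (0.15), Basp1 (0.15), Sdc4 (0.13), Il7r (0.13) and Crip1 (0.13). Of the croton oil 10, 5 were among the first 50 there, while Mgl2, Traf1 and Eno3 were under 20 CPM in microneedle and had no rank. In untreated cells, where 156 of 8524 thinned cells had Tnfrsf9, the highest r was 0.07, for Basp1.

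The levels behind these correlations were read in cells without Ccr7 ordered by their own Tnfrsf9 count. Myo10, Mgl2, Traf1, Cd80, Epcam, Alox5ap and Cacna1e were picked by that correlation in the same cells, so their order restates the choice. From the 2624 thinned cells with no Tnfrsf9 UMI to the 215 with 7 or more, Myo10 went from 421 (407 to 435) to 1214 CPM (1130 to 1302), Mgl2 from 232 (222 to 243) to 992 CPM (917 to 1072) and Traf1 from 16.6 (13.9 to 19.7) to 132 CPM (105 to 163). Il1b, the gene of interleukin-1 beta, went from 584 (567 to 601) to 1553 CPM (1459 to 1653), and Cd207 from 259 to 453 CPM. Going the other way, Epcam went from 1288 to 777 CPM and Alox5ap from 592 to 160 CPM. C1qa, which also separates treated from untreated cells, was at 1730 CPM (1701 to 1759) and 1611 CPM (1514 to 1712). The median depth before thinning was 12538 UMIs in the first class and 11733 in the last.

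Microneedle cells gave the same order for most of these genes. From the 4532 cells with no Tnfrsf9 UMI to the 38 with 4 to 6, Myo10 went from 333 to 965 CPM (793 to 1163), Cd80 from 217 to 526 CPM (402 to 677), Il1b from 313 to 895 CPM (730 to 1086) and Epcam from 1535 to 1070 CPM (889 to 1278). Mgl2, the second most alike in croton oil, was at 15.7 CPM and at 1 UMI in the 38 cells. C1qa was higher rather than lower, at 481 CPM (470 to 493) and 649 CPM (510 to 815). Myo10 and Cd80 were also among the genes picked by correlation in these microneedle cells.

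**Figure D5:**
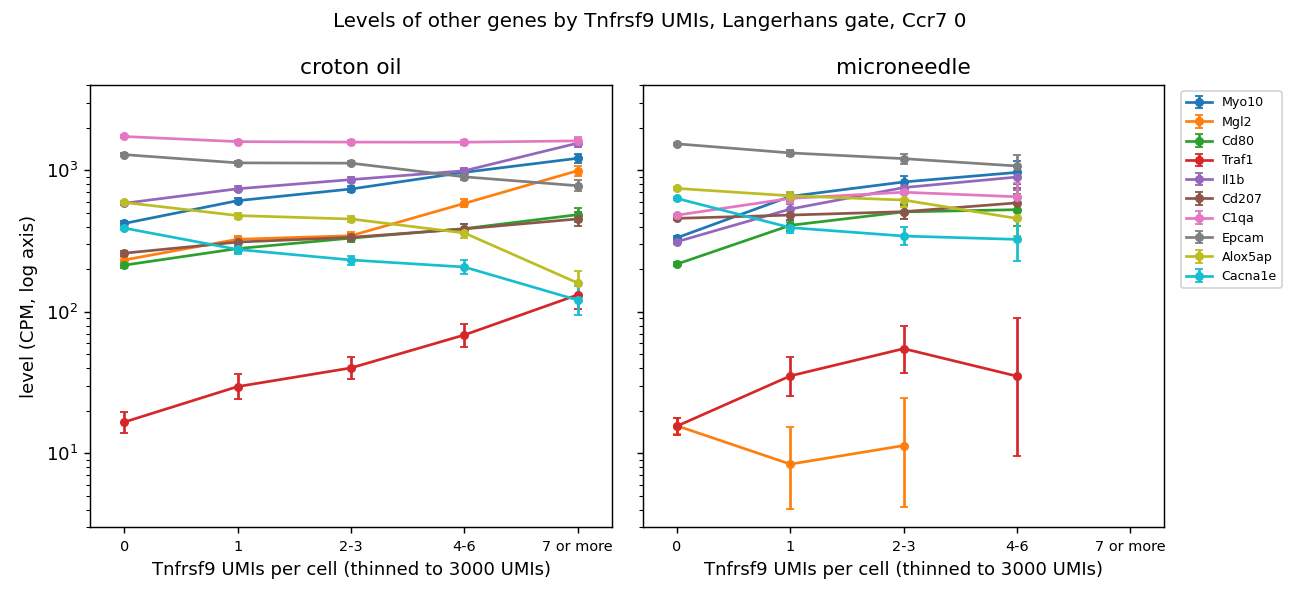
Level (CPM, log axis) of 10 genes in Langerhans cells without Ccr7, grouped by their Tnfrsf9 UMIs after thinning to 3000 UMIs, in croton oil (left) and microneedle (right). Bars are 95% Poisson intervals; classes of fewer than 20 cells and values from fewer than 4 UMIs are not drawn. In croton oil Myo10 goes from 421 to 1214 CPM and Alox5ap from 592 to 160 CPM.

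Partner genes were also used to split all gated cells, here with and without Ccr7 together. After thinning, croton oil cells with a Traf1 UMI had Tnfrsf9 in 78.2% (74.4 to 81.7; 523 cells) and those without in 51.4% (50.1 to 52.8). With and without Il1b the shares were 59.4% and 49.6%, with and without Cd207 57.2% and 51.0%, and with and without Tnf 51.5% and 55.1%. The Cd207 split was 12.5% (11.4 to 13.6) against 11.8% (10.4 to 13.4) in microneedle and 2.02% (1.69 to 2.39) against 1.58% (1.08 to 2.24) in untreated, with overlapping intervals. With a UMI of C1qa the share was 53.2% (51.8 to 54.6) and without it 59.0% (55.1 to 62.8). In microneedle the C1qa split ran the other way, 13.7% (12.5 to 14.9) with it and 9.91% (8.61 to 11.3) without. For the cycling markers, in croton oil, the shares with and without Mki67 were 59.5% (54.9 to 64.1; 457 cells) and 53.3% (52.0 to 54.7), and those with and without Top2a 47.3% (36.9 to 57.9; 93 cells) and 53.9% (52.6 to 55.2). In untreated cells Tnfrsf9 was found in 42.5% (27.0 to 59.1) of the 40 cells with Ccl22 and in 1.73% of those without. Both Traf1 and Ccl22 were higher in gated cells with Ccr7 than without. Traf1 was at 268 against 32.6 CPM in croton oil, and Ccl22 at 2133 against 9.77 CPM in untreated. The part of the Ccr7-positive cells in these splits was not tested, and Traf1 had been picked by its correlation with Tnfrsf9.

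Cells in the T gate had Tnfrsf9 as well, at a level below that of the Langerhans cells without Ccr7 in croton oil and above it in microneedle. Outside the Langerhans gate, the T gate was met by 134 cells after croton oil, 20 after microneedling and 1 from untreated ears. The croton oil T cells had 330 UMIs, 288 CPM (257 to 320), with Tnfrsf9 in 65.7% (57.0 to 73.7) and, after thinning, in 43.3% (34.5 to 52.4). This was 0.607 times the level of croton oil Langerhans cells without Ccr7 (0.545 to 0.677). The 20 microneedle cells had 119 UMIs, 388 CPM (322 to 465), 5.78 times the level of their Langerhans cells without Ccr7 (4.83 to 6.93), but 5 of them had no UMI of Cd3g, Cd247 or Trdc and go against the name T cell. The single untreated cell had 4 UMIs.

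Of the 134 croton oil cells, 131 had Trdc, the delta chain constant gene that marks gamma-delta T cells, and 19 had Trac. The 131 had 232 CPM of Tnfrsf9 (204 to 263), and the 3 without Trdc 1332 CPM (1051 to 1665), with 77 of the 330 UMIs. The T cell level of Tnfrsf9 was 39.2% of that in Langerhans and outside cells pooled, against 3.41% to 9.49% for the 12 reference genes. For genes of the Ccr7-positive cells it was 24.3% (Ccr7), 15.9% (Fscn1), 14.0% (Ccl22) and 79.0% (Traf1), and the part of those cells' RNA in the T cell level was not tested. Keratinocyte markers summed to 5092 CPM in them, and Tnfrsf9 in keratinocytes was 72.6 CPM. The UMIs were unevenly spread: 1 cell with Cd8a, the CD8 alpha chain, had 42 of the 330, and without it the level was 255 CPM (226 to 286). The 10 cells with Icos, a costimulatory receptor of activated T cells, had 966 CPM (804 to 1151) and the 124 without it 201 CPM (175 to 231). The 14 with Il2ra, the high-affinity IL-2 receptor chain, had 610 CPM (496 to 743) against 234 CPM (205 to 267). All 9 with Gzmb, granzyme B, had Tnfrsf9 (66.4 to 100%), against 63.2% (54.1 to 71.6) of the 125 without it, before thinning. Cells with each marker were deeper. The medians were 11105 against 6182 UMIs for Icos, 8588.5 against 6094.5 for Il2ra and 9980 against 6174 for Gzmb. The part of depth was not tested. Icos and Il2ra were higher in the Ccr7-positive cells outside the gate of the same library (71.4 and 66.7 CPM) than in these T cells (16.6 and 25.3 CPM), and the part of those cells' RNA in these splits was not tested.

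In the microneedle gate 15 of 20 cells had Trdc, and they held all 119 UMIs, 502 CPM (416 to 601). The other 5 had 0 UMIs, a share whose exact interval reaches 52.2%. Tnfrsf9 in the 20 cells was 376% of its level in Langerhans and outside cells pooled. The 12 reference genes had a median of 10.7%, with Il1b highest at 308%. Il1b was at 8533 CPM in the neutrophils of this library and at 336 CPM in gated cells without Ccr7. Neutrophil markers summed to 9543 CPM over the 20 cells, with S100a8 at 2946 and S100a9 at 5360 CPM, against 206 CPM in the croton oil T cells, and their part in the Tnfrsf9 level was not tested. Droplets that met the T and the Langerhans gate together numbered 1, 77 and 16. Their level was 285 CPM (260 to 312) after croton oil and 280 CPM (234 to 333) after microneedling, at median depths of 22023 and 30211 UMIs.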

How the data were processed

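The deposited values were raw UMI counts for each gene in each cell. The authors made them with Cell Ranger 8.0 and GRCm39, per the submitters' processing notes. They were not normalized, and free RNA enters every droplet. Cells with at least 500 genes and at most 10% mitochondrial UMIs were kept. Scrublet (scanpy 1.11.5) marked 1, 0 and 0 cells by its own threshold and so had not worked; the highest-scoring 0.8% per 1000 cells were removed instead (779, 542 and 384 cells). Counts were summed per class and library as CPM, with a pseudocount of 5 for log2 changes; 2-fold counted as called. With 1 library per group no test was made. TMM factors came from edgeR 4.0.16 (R 4.3.3); other steps used Python 3.11.15 with numpy 2.4.6, scipy 1.17.1 and pandas 2.3.3. The fold and likeness steps were tested on simulated data. The gene, the gates and the lists were chosen with earlier results of these data known. Named were genes of the receptor, ligand and axis lists with a mean of at least 10 CPM, the genes most and least like Tnfrsf9 (10 and 5 in croton oil, 10 in microneedle), the 10 largest risers, and maturation and injury-linked genes; those named below that level, Icos and the partner splits were picked after their values were seen. Alternatives covered filters, gates, thinning, scaling and pseudocount; the protein sequence was not used here.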

Additional observations from a re-analysis of the deposited data

How the results depend on the processing

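No paired analysis was possible because each group is 1 library. Of 109 recomputed values, 83 stayed within the counting interval or, for counts, within 1.5 times. For the 26 others the cause was not tested, except where fewer features or fewer UMIs entered by construction. Only the log2 change of Tnfrsf9 could change direction, and it did so in none of 10 alternatives per treatment. Shares, levels and counts cannot change direction. The balance of higher and lower features in croton oil did turn, as given above. The log2 change of Tnfrsf9 was 5.86 (croton oil) and 3.06 (microneedle) with a pseudocount of 1 CPM, 5.42 in croton oil under TMM and, with neither class II nor Epcam minimum (chosen after seeing the data), 5.40. The thinned shares of positive cells in untreated, croton oil and microneedle became 1.12%, 44.1% and 9.15% at 2000 UMIs, 3.08%, 65.3% and 18.2% at 6000 UMIs, 5.76%, 76.2% and 29.8% unthinned, 0.199%, 32.5% and 4.25% when 2 UMIs were required, and 1.5%, 50.3% and 10.9% with class II of at least 5%. The T cell level was 393 CPM in croton oil without doublet removal and 502 CPM in microneedle with at least 5 UMIs of the Cd3 genes. Features at least 2-fold from untreated numbered 218 higher and 171 lower in croton oil and 168 and 55 in microneedle at a mean of 50 CPM, and 187 lower in microneedle with a pseudocount of 1 CPM. Classes of 7 to 63 cells limit the values for Ccr7-positive and T cells.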

Other observations

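Icos and Tnfrsf11b, both given in the report for some classes, were singled out after their values were seen. Icos, a costimulatory receptor usually read as a T cell gene, was at 71.4 CPM (croton oil) and 27.4 CPM (microneedle) in the Ccr7-positive cells outside the gate. Cd3e was at 0.305 and 1.13 CPM there, but it is held low because cells of the T gate were left out. The part of T cell RNA in the Icos level was not tested. Tnfrsf11b was at 0.0652 CPM in untreated gated cells without Ccr7 and at 28.8 CPM in croton oil gated cells with Ccr7.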
